A study of Homo sapiens with 24 samples.

Results

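The genes described here are ZBTB1 and 7 other entries of the count table that lie around it on chromosome 14, namely LOC102723809, ZBTB25, HSPA2, AKAP5, CHURC1, FNTB and RAB15. They make up 8 of the 21925 entries of the table. They were chosen by their position and because ZBTB1 was seen to be low in these data with the sgRNA GATA1TSS-Guide1 only. That choice used the levels with GATA1TSS-Guide1 against the other sgRNAs, so for these 8 genes those levels are described below without a test. Their tests come from comparisons that leave GATA1TSS-Guide1 out. Being low with that sgRNA only also involved the levels with the other sgRNAs. Those tests are therefore not free of the choice, and an absence of falls in them was partly fixed in advance. Genes outside the 8 are read from the fit over all genes in every comparison. The data partly went against the description of the genes as low with GATA1TSS-Guide1 only: it held for ZBTB1 and LOC102723809, it held by a narrow margin for CHURC1, and it did not hold for the other 5.

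The study silenced regulatory elements in K562, a human erythroleukaemia cell line, by CRISPR interference and measured polyadenylated RNA by paired-end sequencing. All cells expressed a catalytically dead Cas9 fused to the KRAB repressor domain from a doxycycline-inducible promoter, and all were induced with doxycycline for 24 hours, controls included. Each culture carried 1 sgRNA: GATA1TSS-Guide1 or GATA1TSS-Guide2 for the transcription start site of GATA1, eHDAC6-Guide1 or eHDAC6-Guide2 for a putative GATA1 enhancer, or NC-Guide1 to NC-Guide4, which target no site. Each of the 8 sgRNAs had 3 biological replicates, which gave 24 libraries. Total counts per library ran from 4290343 to 23205811, and the shallowest library was GATA1TSS-Guide2 replicate 2. The K562 erythroid markers summed to 6400 to 14600 CPM (reads scaled to a common library total) in every library. The marker sums were at most 46.0 CPM for T cells (nearly all CD3D), 10.3 CPM for B cells, 82.8 CPM for epithelial cells (nearly all EPCAM), 0.675 CPM for fibroblasts and 0.6 CPM for hepatocytes. In 4 of the 12 NC libraries, replicates 2 and 3 of NC-Guide3 and NC-Guide4, the first principal component of the NC libraries (26.1% of the variance) lay between -28.88 and -17.16, against 7.38 to 13.27 in the other 8, so results against NC are also given against these 4 libraries and against the other 8 where the call or the value moves.

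CRISPR interference works by bringing the KRAB domain to the site that the sgRNA matches. KRAB recruits TRIM28 and histone methyltransferases, which set a repressive chromatin mark over and around the site. An sgRNA tolerates some mismatches, mostly in the bases far from the short PAM motif that Cas9 needs beside its target, so each sgRNA can have sites of its own besides the intended one, and this is why such studies use several sgRNAs per element. ZBTB1 encodes a transcriptional repressor with a BTB domain and C2H2 zinc fingers. It is known for its need in lymphoid development in mice, for its part in the DNA damage response, where it brings TRIM28 to damaged chromatin and helps RAD18 to start translesion synthesis, and for sustaining asparagine synthetase expression in T-cell leukaemia cells. ZBTB25 encodes a related BTB zinc finger protein. LOC102723809 is an antisense transcript that RefSeq also lists as HSPA2-AS1, and HSPA2 encodes an HSP70 chaperone that is most abundant in testis. AKAP5 anchors protein kinase A and calcineurin at membranes, CHURC1 encodes a zinc-binding protein known from neural development in chick, FNTB is the beta subunit of protein farnesyltransferase, and RAB15 is a small GTPase of endosomal recycling.

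On hg19, the build of the deposited gene models, ZBTB1 spans chr14:64971292-65000408 on the plus strand and has 3 exon blocks. ZBTB25 (chr14:64915824-64971931, minus strand) starts 0.6 kb inside ZBTB1 and runs the other way, so the starts lie head to head. LOC102723809 (chr14:64980869-65007086, minus strand) starts 35.8 kb downstream and reads back across ZBTB1, and HSPA2 (chr14:65007186-65009954, plus strand) starts 35.9 kb downstream. AKAP5 (chr14:64932217-64941221, plus strand) starts 39.1 kb upstream and lies wholly inside the ZBTB25 span. CHURC1 (chr14:65381079-65402084, plus strand), RAB15 (chr14:65412532-65438875, minus strand) and FNTB (chr14:65453507-65529370, plus strand) start 409.8, 467.6 and 482.2 kb downstream, and the span of the readthrough entry CHURC1-FNTB covers all 3.

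These overlaps matter because the count of an entry behaved as the number of reads anywhere in its span, on either strand. Genes nested in the span of a longer gene, with no exon base in common and a mean of at least 100 counts, gave 31 pairs on opposite strands and 38 on the same strand, and in all of them the longer gene's count was at least the nested gene's in each of the 24 libraries. At this locus the entry MIR548AZ, which has 85 exonic bases, held 101.8% to 106.5% of the summed counts of MTHFD1, ESR2 and TEX21P, the 3 genes with counts that lie wholly in its span. CHURC1-FNTB likewise held 100.7% to 103.6% of the sum of CHURC1, FNTB, RAB15 and GPX2. LOC102723809 shares 19.5 kb with ZBTB1, which is 74.5% of its own span and 67.1% of that of ZBTB1, so reads of ZBTB1 and of LOC102723809 cannot be told apart there. The ZBTB25 count takes in all AKAP5 reads, reads over 10.9 kb of the 3′ end of MTHFD1 and reads over 0.6 kb of ZBTB1. FNTB shares 56.6 kb with MAX. HSPA2 is the member that overlaps no other entry.

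**Figure D1:**
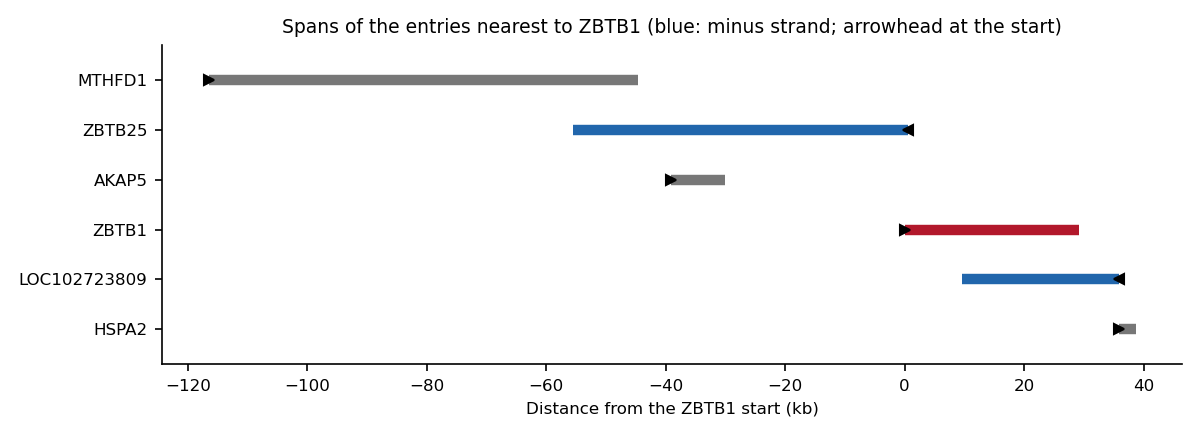
Spans of ZBTB1 (red), of the other listed entries nearest to it and of MTHFD1, drawn to scale as distance from the ZBTB1 start in kb; blue spans lie on the minus strand, grey spans on the plus strand, and arrowheads mark the starts. ZBTB25 and ZBTB1 start head to head, LOC102723809 covers 67.1% of the ZBTB1 span, and HSPA2 lies clear of the others.

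The intended promoter and that of ZBTB1 are shown because the GATA1TSS-Guide1 libraries were low for both genes. The sequences are the 250 bases before each start in the RefSeq promoter table of GRCh38.p14, 5′ to 3′ on the gene's strand, with each CpG dinucleotide in capitals.
ZBTB1 (chr14:64503637-64503886, plus strand): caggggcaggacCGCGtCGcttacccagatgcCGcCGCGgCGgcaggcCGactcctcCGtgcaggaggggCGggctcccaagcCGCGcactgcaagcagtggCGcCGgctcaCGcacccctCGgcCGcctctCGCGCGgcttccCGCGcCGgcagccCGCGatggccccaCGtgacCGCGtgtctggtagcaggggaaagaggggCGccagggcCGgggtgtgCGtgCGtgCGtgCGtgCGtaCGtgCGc
GATA1 (chrX:48786340-48786589, plus strand): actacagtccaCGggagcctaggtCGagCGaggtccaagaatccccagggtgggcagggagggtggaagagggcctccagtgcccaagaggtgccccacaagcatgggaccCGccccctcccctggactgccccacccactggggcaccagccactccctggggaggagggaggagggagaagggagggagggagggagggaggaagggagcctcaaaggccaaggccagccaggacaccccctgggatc
The ZBTB1 window holds 37 CpG dinucleotides and the GATA1 window 4. Its observed over expected CpG ratio of 1.03 is reached by 6.67% of the 35116 promoter windows of the table, against 85.0% for the ratio of 0.14 of the GATA1 window. In that table a ZBTB25 start lies 49 bases upstream of the ZBTB1 start on the other strand, so this window also holds the beginning of ZBTB25. No sgRNA match was sought, because neither guide sequences nor target positions stand in the sources used here. The windows were only compared with each other for letters next to a PAM (NGG, both strands). The longest run ending at an NGG that was shared with the GATA1 window had 5 bases in the ZBTB1 window shown, and 91.7% of all windows share a run at least as long; a ZBTB1 start further downstream had a run of 8 bases, which 21.4% of windows reach. The longest among the members was 9 bases, before a ZBTB25 start, and 9.73% of windows reach it.

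ZBTB1 was low in all 3 GATA1TSS-Guide1 libraries and in no other. It had 8.60, 7.55 and 7.86 CPM with GATA1TSS-Guide1, from 182, 150 and 152 reads. With the other sgRNA for the same start site, GATA1TSS-Guide2, it had 20.7, 26.4 and 19.3 CPM. It had 22.5, 19.5 and 23.2 CPM with eHDAC6-Guide1 and 22.3, 17.0 and 21.4 CPM with eHDAC6-Guide2. In the 12 NC libraries it ranged from 17.1 to 24.6 CPM with a median of 21.5. The highest GATA1TSS-Guide1 library stood at 50.7% of the lowest of the other 21, so the groups did not overlap, and the GATA1TSS-Guide1 mean of 8.0 ± 0.541 CPM (SD, n = 3) was 37.5% of the mean of the other 21 libraries. As a description, the log2 fold change of GATA1TSS-Guide1 was -1.41 (SE 0.12) against NC and -1.43 (SE 0.14) against GATA1TSS-Guide2. Against the 4 NC libraries that stood apart it was -1.28, and against the other 8 it was -1.47. In bulk RNA, less ZBTB1 RNA per cell and fewer cells with ZBTB1 RNA cannot be told apart, and binding of the dead Cas9 at ZBTB1 was not measured in the data analysed here.

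Ordered by mean level, the GATA1TSS-Guide1 group came lowest at 8.0 CPM and was the only one whose range lay apart from the next. NC-Guide3 followed at 19.5, eHDAC6-Guide2 at 20.2, NC-Guide1 and NC-Guide4 at 21.4 each, eHDAC6-Guide1 at 21.7, GATA1TSS-Guide2 at 22.1 and NC-Guide2 at 23.1 CPM, and among these 7 every neighbouring pair overlapped in range. In comparisons that did not involve GATA1TSS-Guide1, no difference in ZBTB1 was detectable by edgeR's quasi-likelihood test with Benjamini-Hochberg adjustment over all genes. ZBTB1 was chosen as low with GATA1TSS-Guide1 only, so the absence of a fall here was partly fixed by the choice. GATA1TSS-Guide2 differed from NC by 0.02 on the log2 scale (95% interval -0.21 to 0.24, adjusted p = 0.943). eHDAC6-Guide1 differed from NC by 0.03 (-0.19 to 0.25, adjusted p = 0.881) and eHDAC6-Guide2 by -0.07 (-0.3 to 0.15, adjusted p = 0.676). The edgeR test for any difference among the 4 NC sgRNAs gave an adjusted p of 0.526 for ZBTB1.

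LOC102723809 moved with ZBTB1. It had 6.66, 6.24 and 6.47 CPM with GATA1TSS-Guide1, against 11.7 to 18.8 CPM in the other 21 libraries, and the highest GATA1TSS-Guide1 library was 56.7% of the lowest other. The log2 fold change was -1.26 (SE 0.12) against NC and -1.27 (SE 0.15) against GATA1TSS-Guide2, both given as descriptions. It was -1.11 against the 4 NC libraries that stood apart and -1.33 against the other 8. Since it shares most of its span with ZBTB1, its count is not a separate measurement. LOC102723809 counts came to 77.5 to 82.7 per 100 ZBTB1 counts with GATA1TSS-Guide1 and to 65.0 to 80.3 in the other libraries. The ZBTB1 level less that of LOC102723809 was 1.31 to 1.94 CPM with GATA1TSS-Guide1 and 3.99 to 8.64 CPM in the other libraries, so the part of the ZBTB1 count in excess of the LOC102723809 count was lower as well.

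ZBTB25, whose start faces that of ZBTB1, did not show a difference of that size. It had 55.4, 63.8 and 57.5 CPM with GATA1TSS-Guide1, against 56.6 to 76.0 CPM in the other 21 libraries, and the ranges overlapped. The log2 fold change of GATA1TSS-Guide1 was -0.21 (SE 0.07) against NC and -0.09 (SE 0.08) against GATA1TSS-Guide2. Within a library, ZBTB1 counts per 100 ZBTB25 counts were 11.8 to 15.5 with GATA1TSS-Guide1 and 23.3 to 46.6 elsewhere. How much of the ZBTB25 entry comes from ZBTB25 itself cannot be told from these counts, because MTHFD1 and AKAP5 reads fall in its span. MTHFD1, a folate-cycle enzyme whose 3′ end lies in the ZBTB25 span, had 157 to 170 CPM with GATA1TSS-Guide1 and 143 to 185 CPM with NC.

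HSPA2, which overlaps no other entry, was not lower with GATA1TSS-Guide1. It had 3.07, 2.77 and 2.79 CPM there, against 1.40 to 4.96 CPM in the other 21 libraries, and these values lay inside that range. Its log2 fold change was 0.25 (SE 0.21) against NC, and 0.03 against the 4 NC libraries that stood apart. AKAP5 was near the limit of detection, at 1.04, 1.21 and 0.673 CPM with GATA1TSS-Guide1 and 0.288 to 1.36 CPM with NC. It had 0 reads in GATA1TSS-Guide2 replicate 2, where 3 reads would be 0.682 CPM, so a level below that was not detectable at this depth.

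Further out, CHURC1 had 26.0, 26.9 and 25.6 CPM with GATA1TSS-Guide1, against 27.3 to 44.8 CPM in the other 21 libraries. All 3 values lay below all others, but the highest was 98.5% of the lowest other. The log2 fold change was -0.34 (SE 0.09) against NC and -0.28 (SE 0.12) against GATA1TSS-Guide2. It was -0.2 against the 4 NC libraries that stood apart and -0.42 against the other 8. FNTB had 27.6, 27.5 and 30.0 CPM with GATA1TSS-Guide1, within the 24.3 to 35.7 CPM of the other libraries, and its log2 fold change against NC was -0.03 (SE 0.09). RAB15 had 2.27, 2.52 and 2.43 CPM, within 1.60 to 4.09 CPM elsewhere, and its log2 fold change was 0.1 (SE 0.23).

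**Figure D2:**
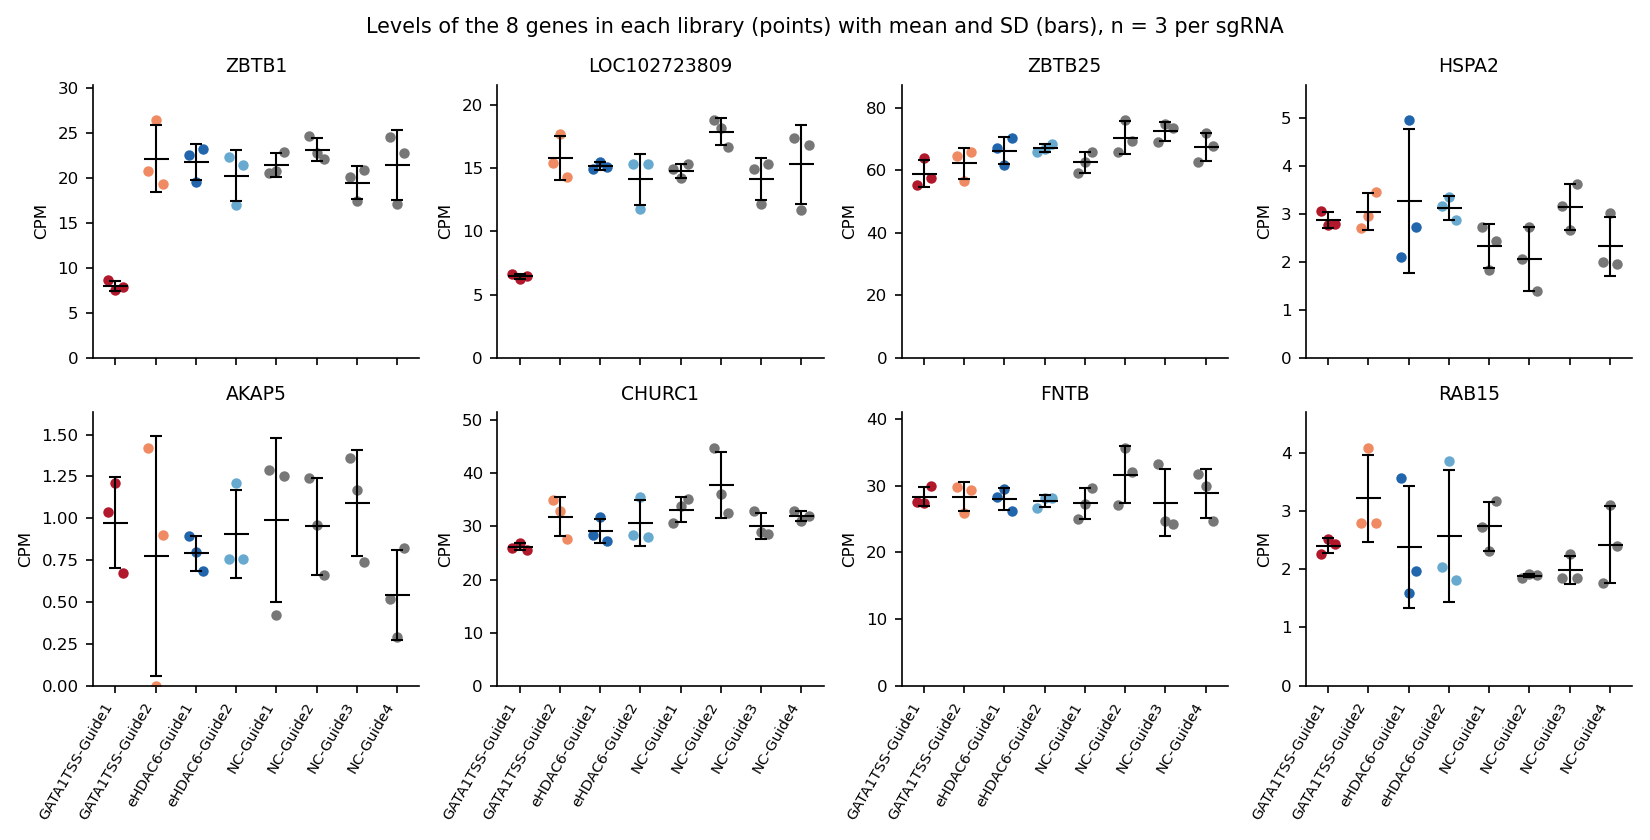
CPM of each of the 8 genes (panels) in each library (points) by sgRNA, with bars for the mean and SD of 3 libraries; each y axis starts at 0 and has its own scale. ZBTB1 (7.55 to 8.60 CPM) and LOC102723809 (6.24 to 6.66 CPM) stood below every other library with GATA1TSS-Guide1, while the other 6 panels showed overlapping or nearly touching ranges.

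All 8 members passed the filter on low counts. In the GATA1TSS-Guide1 contrasts no calls are given for the members, because those levels were part of how the genes were chosen. Over the 13147 genes tested, 6.21% were called higher and 5.8% lower with GATA1TSS-Guide1 against NC. Against GATA1TSS-Guide2, 1.7% were called higher and 1.77% lower. The other comparisons did not use GATA1TSS-Guide1. In them edgeR's quasi-likelihood test called 0 of the 8 members, at an adjusted p under 0.05, with GATA1TSS-Guide2 against NC (12.4% of all genes higher and 12.4% lower), with eHDAC6-Guide1 against NC (9.33% higher and 7.35% lower), with eHDAC6-Guide2 against NC (10.3% higher and 8.91% lower) and in the test for any difference among the NC sgRNAs (12.3% called). Of these 32 tests, 0 had an unadjusted p under 0.05, and DESeq2 also called 0. The lowest adjusted p was 0.168, for CHURC1 with eHDAC6-Guide1, where it differed from NC by -0.19 (95% interval -0.39 to 0.0). The widest intervals were those of AKAP5, RAB15 and HSPA2. With GATA1TSS-Guide2 against NC they ran from -0.57 to 0.99 for AKAP5, from -0.04 to 0.93 for RAB15 and from -0.13 to 0.8 for HSPA2. Changes within these bounds were not excluded. For ZBTB25 the interval in that comparison was -0.26 to 0.02, and for FNTB it was -0.21 to 0.19. The median log2 fold change of the 8 members was 0.01 with GATA1TSS-Guide2, -0.03 with eHDAC6-Guide1 and -0.04 with eHDAC6-Guide2, against 0.0, -0.01 and -0.01 over all genes tested. These comparisons share the NC libraries. The choice of genes low with GATA1TSS-Guide1 only also took in the levels with the other sgRNAs. An absence of falls in these comparisons was thus partly fixed by the choice, and nothing is concluded from it. LOC102723809 shares reads with ZBTB1, so the 8 members are not separate tests.

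Among all genes, few were set apart by GATA1TSS-Guide1 in the way ZBTB1 was, and since ZBTB1 was chosen for this it is again a description. In 9 of the 13147 genes tested, or 0.0685%, all 3 GATA1TSS-Guide1 libraries lay below all 21 others. The same count was 304 for GATA1TSS-Guide2, 10 for eHDAC6-Guide1, 12 for eHDAC6-Guide2, and 153, 228, 2 and 3 for NC-Guide1 to NC-Guide4. Of those 9, 7 had a mean of at least 5 CPM: ZBTB1, LOC102723809, C12orf45, ZNF765, CHURC1, C12orf76 and GEMIN8. The highest GATA1TSS-Guide1 library was 97.4% to 99.5% of the lowest other in the last 5 of these, against 50.7% in ZBTB1 and 56.7% in LOC102723809. The GATA1TSS-Guide1 mean as a share of the mean of the other 21 libraries was lower than that of ZBTB1 in 1 of the 9974 genes of that level. That gene, named after its value was seen, was TF, the iron carrier transferrin, at 26.1%, and its groups overlapped, since its highest GATA1TSS-Guide1 library was 243% of its lowest other library. By fitted log2 fold change ZBTB1 was less extreme: 11 of these 9974 genes were lower than ZBTB1 with GATA1TSS-Guide1 against NC and 4 against GATA1TSS-Guide2, and over all 13147 genes tested, low ones included, 43 and 73 were lower.

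**Figure D3:**
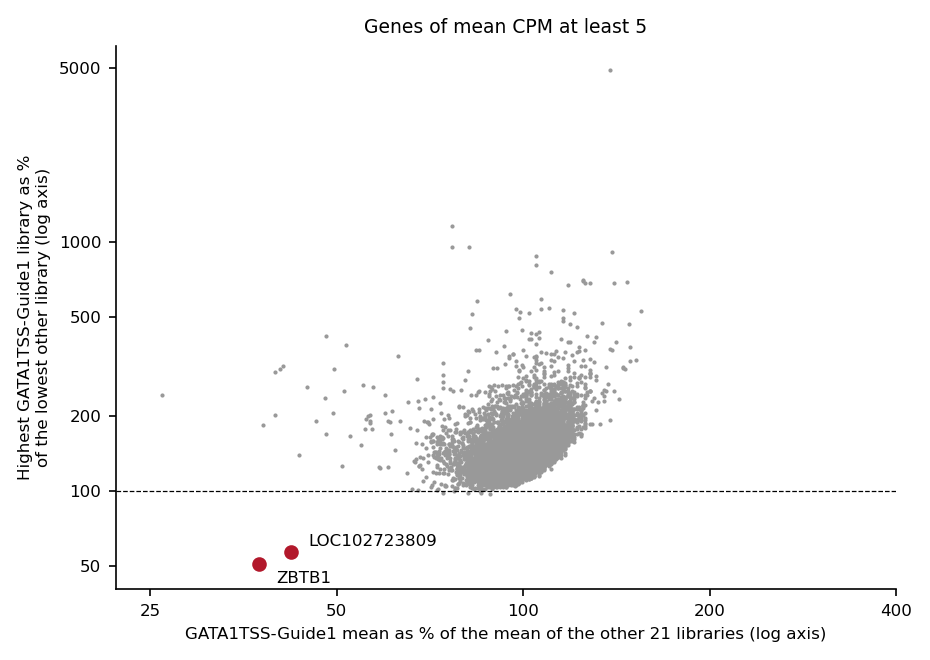
Each point is 1 of the 9974 genes of mean CPM at least 5: the x axis gives the GATA1TSS-Guide1 mean as a percent of the mean of the other 21 libraries, the y axis the highest GATA1TSS-Guide1 library as a percent of the lowest other (both log axes); points under the dashed line at 100% do not overlap. ZBTB1 (37.5% and 50.7%) and LOC102723809 (42.2% and 56.7%), in red, lie far below the line, and 5 further genes lie just under it.

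The level of GATA1, the intended target, did not order the libraries as ZBTB1 did. GATA1 encodes the main erythroid transcription factor and served as the check of the labels. It had 130, 96.1 and 123 CPM with GATA1TSS-Guide1 and 60.2, 42.1 and 57.0 CPM with GATA1TSS-Guide2. It had 242 to 253 CPM with eHDAC6-Guide1 and 255 to 267 CPM with eHDAC6-Guide2, against 280 to 394 CPM in the NC libraries. The GATA1TSS-Guide2 libraries thus had less GATA1 than the GATA1TSS-Guide1 libraries and ZBTB1 levels inside or above the NC range.

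**Figure D4:**
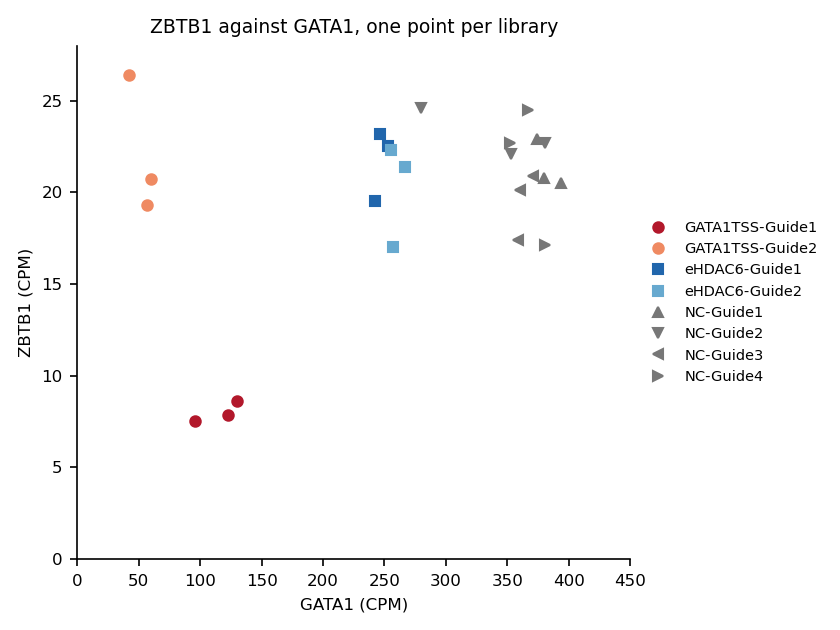
ZBTB1 CPM (y axis) against GATA1 CPM (x axis), 1 point per library, with colour and shape for the sgRNA. The 3 GATA1TSS-Guide1 libraries sit at 7.55 to 8.60 CPM of ZBTB1, while the GATA1TSS-Guide2 libraries, which have the lowest GATA1 (42.1 to 60.2 CPM), sit at 19.3 to 26.4 CPM.

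In the wider locus no other tested gene was as low with GATA1TSS-Guide1 as ZBTB1 and LOC102723809. Within 1 Mb of the ZBTB1 start the table holds 31 genes, of which 22 were tested, the 8 members and 14 others; 3 of the 31 had 0 counts in every library. Without ZBTB1 and LOC102723809, the other 20 ran from -1.04 (MIR7855) to 0.25 (HSPA2) in log2 fold change with GATA1TSS-Guide1 against NC, with a median of -0.16. The next lowest were MIR7855 and SYNE2, which had negative values with GATA1TSS-Guide2 as well. MIR7855, an entry of 61 bases inside SPTB that shares its reads, was at -1.04 with GATA1TSS-Guide1 and at -1.18 with GATA1TSS-Guide2. SYNE2, a nuclear envelope protein gene whose start is 651.6 kb upstream, was at -0.9 with GATA1TSS-Guide1, -2.2 with GATA1TSS-Guide2, -1.67 with eHDAC6-Guide1 and -1.62 with eHDAC6-Guide2. SPTB, the erythroid beta-spectrin gene 318.6 kb downstream, was at -0.78, -1.38, -0.88 and -0.82 in the same order. Of the 14 others, edgeR called 2 lower with GATA1TSS-Guide1 against NC, where 5.8% of all genes were lower. They were SPTB (adjusted p = 0.00122) and MIR7855 (adjusted p = 0.0432), which share reads. These 2 calls are not followed through the other fits described below.

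Of the 14 other genes of the locus, 6 fell with GATA1TSS-Guide2 against NC by edgeR, where 12.4% of all genes fell: SPTB (adjusted p = 2.51e-07), ESR2 (-1.27, adjusted p = 0.000462), SYNE2 (adjusted p = 0.00132), SGPP1 (-0.52, adjusted p = 0.00561), MIR548AZ (-0.2, adjusted p = 0.00613), whose span covers ESR2 and MTHFD1, and MIR7855 (adjusted p = 0.0213). MIR548AZ also differed among the NC sgRNAs (edgeR adjusted p = 0.0476). With eHDAC6-Guide1, where 7.35% of all genes fell and 9.33% rose, SPTB (edgeR adjusted p = 0.000398) and SYNE2 (0.0145) fell and MAX, the partner of MYC, rose by 0.18 (0.0272). With eHDAC6-Guide2, where 8.91% fell and 10.3% rose, SPTB (edgeR adjusted p = 0.000499), ESR2 (-0.95, 0.00901), SYNE2 (0.0148) and SGPP1 (-0.41, 0.0301) fell, and MAX rose by 0.17 (0.0372).

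These calls moved with the controls. Against the 4 NC libraries that stood apart, 4 of the 6 were still called with GATA1TSS-Guide2 (ESR2, MIR548AZ, SGPP1 and SPTB) and edgeR called 0 with either eHDAC6 sgRNA, with 1 of the 14 at an unadjusted p under 0.05 for eHDAC6-Guide1 and 2 for eHDAC6-Guide2. Against the other 8, the same 6 were called with GATA1TSS-Guide2 and 5 with eHDAC6-Guide1 (ESR2 and MIR7855 besides the 3 above). With eHDAC6-Guide2, 6 were called (MIR7855 besides the 5 above). Over all 13147 genes tested, these sgRNAs had 1835, 23 and 110 calls against the 4. Against the 8 they had 3890, 3753 and 4046. SYNE2 with GATA1TSS-Guide2 was at -1.1 against the 4 and at -2.61 against the 8. SPTB had 68.2 to 78.2 CPM with GATA1TSS-Guide2, against 113 to 143 CPM in those 4 NC libraries and 194 to 240 CPM in the other 8. The part of that division in the calls was not tested. With counts summed per sgRNA each targeting sgRNA is a single sum, so the spread comes from the 4 NC sums alone; there edgeR called 3 with GATA1TSS-Guide2 (ESR2, SPTB and SYNE2) and 0 with either eHDAC6 sgRNA, with 2 at an unadjusted p under 0.05 for eHDAC6-Guide1 and 5 for eHDAC6-Guide2.

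When each library or NC sgRNA was left out, SPTB and MIR548AZ kept their calls in every edgeR fit and ESR2 and SYNE2 kept theirs with GATA1TSS-Guide2. With GATA1TSS-Guide2, MIR7855 was at -1.45 without replicate 1 (edgeR adjusted p = 0.0604), at -0.84 without replicate 3 (0.217) and at -1.06 without NC-Guide2 (0.0506), and SGPP1 was at -0.35 without replicate 3 (0.132). MAX was not called without any 1 of the 3 replicates of either eHDAC6 sgRNA, while its difference stayed at 0.17 to 0.2 for eHDAC6-Guide1 (edgeR adjusted p of 0.0824 to 0.116) and at 0.15 to 0.2 for eHDAC6-Guide2 (0.0636 to 0.162). Without NC-Guide1 it was at 0.13 with eHDAC6-Guide1 (edgeR adjusted p = 0.156) and at 0.12 with eHDAC6-Guide2 (0.188). With eHDAC6-Guide2 it was at 0.16, and not called, without NC-Guide1 replicate 3 (edgeR adjusted p = 0.0626), NC-Guide3 replicate 2 (0.0564) or NC-Guide4 replicate 1 (0.0546). SYNE2 was at -1.49 and -1.67 without replicate 1 or 3 of eHDAC6-Guide1 (edgeR adjusted p of 0.0983 and 0.0711) and at -1.26 without replicate 2 of eHDAC6-Guide2 (0.101). With eHDAC6-Guide2, ESR2 was at -0.84 without replicate 3 (edgeR adjusted p = 0.0792), and SGPP1 was at -0.37 to -0.44 without any 1 of the 3 replicates (0.0734 to 0.157) and at -0.37 without NC-Guide1 (0.0798). These fits hold fewer samples than the fit over all 24 libraries.

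**Figure D5:**
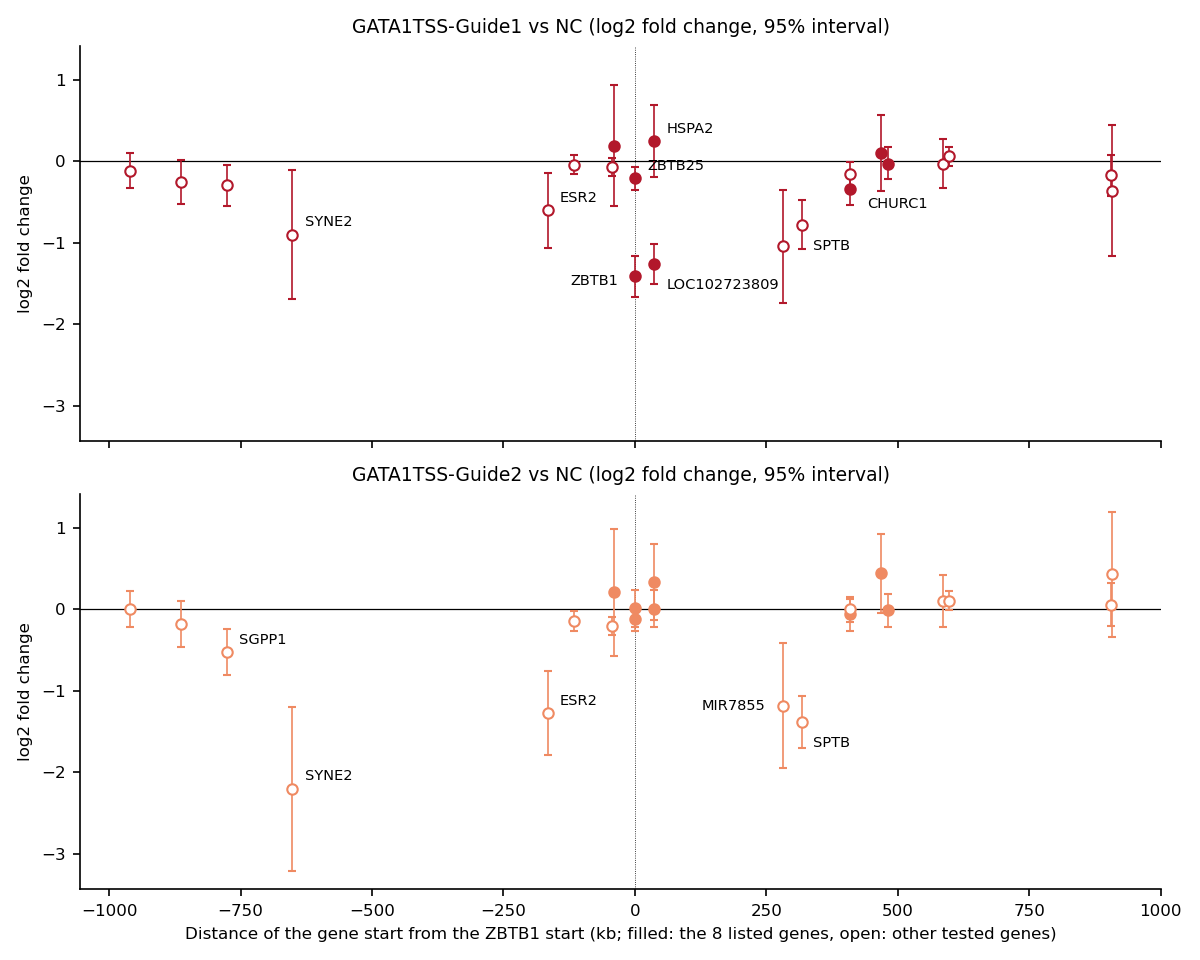
Log2 fold change against NC (y axis, with 95% intervals) by distance of the gene's start from the ZBTB1 start in kb (x axis) for the 22 tested genes within 1 Mb; upper panel GATA1TSS-Guide1, lower panel GATA1TSS-Guide2, filled points for the 8 members and open points for others. ZBTB1 and LOC102723809 lie at -1.41 and -1.26 in the upper panel and at 0.02 and 0.01 in the lower one, while SYNE2, ESR2 and SPTB lie lower in the lower panel.

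The genes whose levels were most like those of ZBTB1 were found by Pearson r of log2 CPM over the 24 libraries, among 9973 genes of mean CPM at least 5. These values describe libraries that share sgRNAs, depth and controls. Leaving out the GATA1TSS-Guide1 libraries lowered r for LOC102723809, DDX42 and SLC27A6 and raised it for ZNF117 and SENP7. LOC102723809 came first (r = 0.984, and 0.891 over the 21 libraries without GATA1TSS-Guide1). It shares reads with ZBTB1 over most of its span, so nothing is read from its place. ZNF117 (0.707 and 0.783), DDX42 (0.706 and 0.644), SLC27A6 (0.675 and 0.378) and SENP7 (0.667 and 0.739) followed. Their differences with GATA1TSS-Guide1 were smaller than that of ZBTB1: ZNF117 averaged 46.6 CPM there, against 51.9 to 66.1 CPM with the other sgRNAs, and DDX42 averaged 135 CPM, against 144 to 166 CPM.

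Lists of genes related to ZBTB1 were read in the same fits, beside the shares of all genes given above. Of the 35 other entries whose symbol begins with ZBTB, 28 were tested. Between GATA1TSS-Guide1 and GATA1TSS-Guide2, edgeR called 0 of the 28, with 1 at an unadjusted p under 0.05, and DESeq2 called 0. The median log2 fold change of the 28 was -0.02. ZBTB1 itself stood apart in this comparison, but GATA1 differed in it as well (means of 117 and 53.1 CPM). With GATA1TSS-Guide1 against NC, 3 rose (ZBTB7B, ZBTB17 and ZBTB7A, by 0.32, 0.38 and 0.21) and 0 fell. These 3 also rose with GATA1TSS-Guide2 (0.32, 0.46 and 0.22), eHDAC6-Guide1 (0.26, 0.42 and 0.22) and eHDAC6-Guide2 (0.32, 0.4 and 0.24). With GATA1TSS-Guide2 against NC, 5 rose and 2 fell, among them ZBTB17, a partner of MYC, by 0.46 (SE 0.09) and ZBTB10 by -0.68 (SE 0.15). With eHDAC6-Guide1, 5 rose and 2 fell, and with eHDAC6-Guide2, 6 rose and 1 fell, ZBTB48, a telomere-binding protein, being at 0.48 and 0.42. ZBTB48, ZBTB17 and ZBTB7B also differed among the NC sgRNAs (edgeR adjusted p = 0.0128, 0.0373 and 0.0374). The list's median was 0.07, 0.13, 0.05 and -0.02 for the 4 targeting sgRNAs. Against the 4 NC libraries that stood apart, the calls in these comparisons numbered 0, 2, 0 and 0, with 2, 4, 0 and 2 at an unadjusted p under 0.05. Against the other 8 they numbered 8, 8, 10 and 10, and the 8 with GATA1TSS-Guide1 were 6 higher and 2 lower. Over all 13147 genes tested, the calls in the same order numbered 25, 1835, 23 and 110 against the 4. They numbered 3331, 3890, 3753 and 4046 against the 8.

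For translesion synthesis, 18 of the 19 listed genes were analysed. RAD18, the ubiquitin ligase that acts on PCNA, had a mean of 71.4 CPM with GATA1TSS-Guide1, 69.4 with GATA1TSS-Guide2 and 67.2 with NC, and TRIM28 had 796, 748 and 722 CPM. Between GATA1TSS-Guide1 and GATA1TSS-Guide2 edgeR called 0 of the 18, with 1 at an unadjusted p under 0.05, and DESeq2 called 0. With GATA1TSS-Guide1 against NC, HLTF, another ligase for PCNA, fell by 0.28 and UBE2B, a ubiquitin-conjugating enzyme that works with RAD18, fell by 0.25; 0 rose. UBE2B also differed among the NC sgRNAs (edgeR adjusted p = 0.0153). HLTF fell with the other 3 targeting sgRNAs as well, by 0.46 with GATA1TSS-Guide2, 0.29 with eHDAC6-Guide1 and 0.31 with eHDAC6-Guide2. So did UBE2B, which was at -0.24, -0.28 and -0.25 in the same order. Counting the whole list, GATA1TSS-Guide2 had 2 genes higher and 3 lower, and 1 rose and 3 fell with eHDAC6-Guide1, and 0 rose and 4 fell with eHDAC6-Guide2. The list's median was -0.08, -0.01, -0.09 and -0.05 for the 4 sgRNAs. Against the 4 NC libraries that stood apart, the calls numbered 0, 1, 0 and 0, with 0, 2, 1 and 1 at an unadjusted p under 0.05. Against the other 8 they numbered 8, 6, 5 and 6, and the 8 with GATA1TSS-Guide1 were 3 higher and 5 lower. The counts over all genes in these fits are those given with the ZBTB list.

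For asparagine synthesis and ATF4 targets, 4 of the 6 listed genes were analysed, and all 4 fell with each targeting sgRNA against NC by edgeR. ASNS, asparagine synthetase, averaged 187 ± 12.8 CPM with GATA1TSS-Guide1, 120 ± 14.2 with GATA1TSS-Guide2, 255 ± 18.2 with eHDAC6-Guide1 and 158 ± 8.52 with eHDAC6-Guide2 (SD, n = 3 each), against 726 ± 344 CPM over the 12 NC libraries. CHAC1, which degrades glutathione, averaged 4.92, 2.68, 6.31 and 4.21 CPM with these sgRNAs, against 17.7 ± 9.01 CPM with NC. DDIT3 and SESN2, both stress-induced genes, were lower by less, at -0.63 and -0.61 with GATA1TSS-Guide1 and at -0.87 and -0.99 with GATA1TSS-Guide2. ASNS and DDIT3 differed among the NC sgRNAs (edgeR adjusted p = 0.0305 and 0.0241), with ASNS means of 1080 CPM for NC-Guide1 and 470 CPM for NC-Guide4. Against the 4 NC libraries that stood apart, edgeR called 1 of 4 with GATA1TSS-Guide1 (ASNS, -0.56), 4 of 4 with GATA1TSS-Guide2 (ASNS at -1.21), 0 of 4 with eHDAC6-Guide1 (with 0 at an unadjusted p under 0.05) and 1 of 4 with eHDAC6-Guide2 (ASNS, -0.8). Against the other 8, all 4 were called with each, with ASNS at -2.35, -3.0, -1.9 and -2.59. Counts over all genes in these fits are again those given with the ZBTB list. Between GATA1TSS-Guide1 and GATA1TSS-Guide2, 0 of the 4 were called by edgeR or DESeq2, with 0 at an unadjusted p under 0.05. Over all genes 1.7% were called higher and 1.77% lower there. The median log2 fold change of the 4 was 0.52. ASNS was at 0.65 (SE 0.34), CHAC1 at 0.97 (SE 0.53), DDIT3 at 0.24 (SE 0.13) and SESN2 at 0.39 (SE 0.2). ZBTB1 was low in the first and not in the second, but GATA1 differed too, at means of 117 and 53.1 CPM. The 2 differences cannot be told apart here. With counts summed per sgRNA, where the spread again comes from the NC sums alone, and in the order GATA1TSS-Guide1, GATA1TSS-Guide2, eHDAC6-Guide1 and eHDAC6-Guide2, edgeR called 0, 4, 0 and 1 of these 4 genes against NC (4, 4, 3 and 4 at an unadjusted p under 0.05), 0 of the 18 translesion synthesis genes with each (0, 2, 1 and 2), and 0 of the 28 other ZBTB genes with each (3, 5, 4 and 5).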

How the data were processed

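Polyadenylated RNA of 24 K562 cultures was sequenced, and the samples were grouped by the sgRNA in their titles. The values are raw counts for each gene symbol, as deposited, with the authors' gene models in BED layout on hg19. TopHat2 2.0.8, Bowtie2 2.1.0, SAMtools 0.1.19 and Picard are listed in the submitters' processing notes; what counted the reads is not given in the sources used here. How counts were assigned was therefore checked on the deposited values. Per the labels' protocols the libraries were strand-specific, but the counts behaved as sums over both strands.

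CPM values are deposited counts divided by the library total after TMM scaling (factors 0.952 to 1.03). Tests used R 4.3.3 with edgeR 4.0.16 (quasi-likelihood fits, 1 coefficient per sgRNA over all 24 libraries, the 4 NC coefficients averaged). Genes were kept at edgeR's filter of a minimum count of 10, a minimum total of 15 and a proportion of 0.7. Genes were called at a Benjamini-Hochberg adjusted p under 0.05 over all 13147 tested. The fit was tried on simulated counts with 200 genes changed in GATA1TSS-Guide2, read against NC. The simulation had a single common spread and no differences among NC sgRNAs, unlike the real libraries. It therefore does not bear on calls that depend on such differences. In the model with 1 coefficient per sgRNA the error is the spread between the 3 replicates of an sgRNA and holds no variation between sgRNAs. The fits against the 4 NC libraries or the other 8 pool each set into a single group. Their error therefore also holds differences between NC sgRNAs. At a depth of 4290343 to 23205811 counts per library, low genes carry wide intervals, and floors cover counting error only. DESeq2 1.42.0, other scaling, no filter, the replicate number as a block, counts summed per sgRNA, other sets of NC libraries and leaving out each library were tried; the fit against the other 8 NC libraries was added after the data were seen. The principal component used the 2000 most variable genes.

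The members and all gene lists were chosen with earlier results of these data known. The genes named are the 8 members, GATA1, the genes of the locus called where GATA1TSS-Guide1 was not used and the nearest tested gene on each side, the 5 most like ZBTB1, up to 10 low with GATA1TSS-Guide1 alone, and up to 4 called genes per list and comparison. Over the 84 pairs of same-numbered replicates of 2 sgRNAs, the deviations from the sgRNA means had a median r of 0.0158, with 8 over 0.1. The exception was NC-Guide3 with NC-Guide4, at 0.431, 0.0779 and 0.175 for replicates 1, 2 and 3, whose replicates 2 and 3 are the 4 libraries that stood apart. Since not every pair was over 0.1, the numbers were not taken to pair the cultures. Replicates of an sgRNA differed by more than sampling noise. Promoter windows are RefSeq sequences on GRCh38.p14, and no coordinates were converted between builds; 6 of the 8 members had an entry.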

Additional observations from a re-analysis of the deposited data

How the results depend on the processing

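In the contrasts with GATA1TSS-Guide1, which have no test for the 8 members, 510 of 536 values recomputed under the alternatives moved by less than the spread between replicates; the 26 that moved by more were 6 each for CHURC1 and RAB15, 5 for LOC102723809, 4 for HSPA2, 2 each for FNTB and ZBTB1 and 1 for AKAP5. In the contrasts without GATA1TSS-Guide1, where not being low was part of the choice, no member was called in any of 840 values. ZBTB1 with GATA1TSS-Guide1 ranged from -1.47 to -1.37 against NC and from -1.52 to -1.32 against GATA1TSS-Guide2 when each library was left out, and was -1.28 against the 4 NC libraries that stood apart.

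Counts over all genes depended on the controls. With GATA1TSS-Guide1 against NC, 1579 genes were called, but 25 against the 4 NC libraries that stood apart, 3331 against the other 8, 3 with counts summed per sgRNA, 730 without NC-Guide1, 746 without NC-Guide2 and 2584 without NC-Guide3 (537 to 2152 when each library was left out). With GATA1TSS-Guide2 the count of 3259 became 1835 against the 4 and 586 when summed (2186 to 3508). With eHDAC6-Guide1 the count of 2192 became 23 against the 4, 3753 against the 8, 0 when summed by edgeR (1559 at an unadjusted p under 0.05), 1431 without NC-Guide1 and 1066 without NC-Guide2 (873 to 2810). With eHDAC6-Guide2 the count of 2521 became 110, 4046 and 8 in the same 3 fits, and 1358 without NC-Guide2 (977 to 3121). Among NC sgRNAs the count of 1618 became 2744 by DESeq2, 385 without NC-Guide1 and 224 without NC-Guide2 (269 to 3248). Between the GATA1TSS sgRNAs it was 457 (178 to 636). The cause was not tested. Summing leaves fewer samples. The fits against the 4 and against the 8 hold fewer controls and treat each set as a single group across NC sgRNAs.

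With the replicate block the counts were 1658, 507, 3258, 2225, 2520 and 1729 in the order GATA1TSS-Guide1 against NC, GATA1TSS-Guide1 against GATA1TSS-Guide2, GATA1TSS-Guide2, eHDAC6-Guide1 and eHDAC6-Guide2 against NC, and any NC difference, and the ZBTB1 difference with GATA1TSS-Guide1 against NC was -1.41; the pairing of numbers is not given by the labels. Depth limits AKAP5, HSPA2 and RAB15, and the overlap of spans limits LOC102723809 and ZBTB25.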
